A study of Arabidopsis thaliana with 29 samples.

Results

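The loci described here are the transposable elements of Arabidopsis chromosomes 2, 3 and 5. They were chosen by identifier from a table of read counts for 59999 loci: every locus whose name starts with AT2TE (5949), AT3TE (6461) or AT5TE (6677), which gives 19087 elements of the 31189 in the table. The elements of chromosomes 1 and 4 (7135 and 4967) and the 28810 loci that are no transposable element serve only for comparison. The rule used identifiers only, but it was set with earlier results of these data known.

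Transposable elements are stretches of DNA that can move or copy themselves to other places in a genome. Retrotransposons copy themselves through an RNA intermediate, and DNA transposons move as DNA. In Arabidopsis they are packed most densely around the centromeres, and most are kept silent by DNA methylation, by repressive histone methylation and by small RNAs that guide methylation to matching sequence. The numbers in the identifiers run in order along each chromosome, so they serve below as a rough position. Element coordinates, families and sequences were not used here.

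The study concerns HY5, a bZIP transcription factor that promotes seedling development in light, and the proteins DET1 and COP1 that keep HY5 in check. Sense-strand counts from polyadenylated RNA of 7-day-old seedlings, grown on sucrose-supplemented MS medium in 16 h light and 8 h dark, were available for 9 samples. The first group, called fusca here, is 2x35S::GFP-HY5/hy5 showing the fusca phenotype, the dark purple, stunted habit of seedlings with light responses switched on too far (3 samples). The second, called GFP-HY5 here, is 2x35S::GFP-HY5/hy5 with no such phenotype in its label (3 samples). Both carry GFP-tagged HY5 in an hy5 mutant background, driven by the 35S promoter, which is active in most tissues. The last is wild type without the transgene, WT (3 samples). Whether the replicates came from separate cultures, and whether both transgenic groups go back to 1 transformant, is not stated in the sources used here, so p-values measure only the spread between these samples. In RNA from whole seedlings, fewer cells of a type and less RNA per cell cannot be told apart.

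The 3 GFP-HY5 columns held identical values in every row, so they count as 1 library, and the comparison of GFP-HY5 with WT carries no p-value. The 7 distinct libraries held between 11860094 and 12545563 counts over loci. HY5 itself, the check of the labels, stood at 148.6 ± 33.0 CPM in fusca (SD, n = 3), 77.4 CPM in the GFP-HY5 library and 14.1 ± 2.04 CPM in WT (SD, n = 3). Levels are given as CPM, counts relative to library size after TMM scaling (trimmed mean of M-values, which corrects for a few loci taking a large share of a library). One library stands apart: fusca replicate 2 lay at least 2-fold from both other fusca replicates at 6.1% of the 21820 loci tested, against 0.587% for fusca replicate 1 and 0.463% for fusca replicate 3. It also held 2974 counts over a list of 11 seed storage genes, where fusca replicates 1 and 3 held 34 and 31, the GFP-HY5 library 10 and the WT libraries 19, 55 and 20.

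Most of the elements gave no reads. Of the 19087, 14237 had 0 counts in every library and 4850 (25.4%) had at least 1 count somewhere, where 89.0% of the loci that are no transposable element did. The number of elements with a count was 2253, 2108 and 2387 in the fusca libraries, 2573 in the GFP-HY5 library and 1925, 1927 and 1933 in the WT libraries. The GFP-HY5 library thus detected the most elements, every fusca library detected more than any WT library, and the WT libraries differed little from each other.

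The summed level of the elements gave a different order from the number detected. As a share of each library's counts, the 19087 elements took 0.796%, 0.873% and 0.89% in fusca and 0.659%, 0.641% and 0.643% in WT. In the GFP-HY5 library the share was 0.707% (95% Wilson interval 0.702% to 0.712%, counting error only). On the TMM scale, however, the sums were 6669.0, 7895.1 and 7091.2 CPM in fusca, 7769.2 CPM in the GFP-HY5 library and 7425.3, 7253.6 and 7680.6 CPM in WT, so fusca and WT overlapped. Whether the summed level was higher in fusca therefore depended on the scaling, which multiplies library sizes by 1.11 to 1.26 in fusca, 0.91 in GFP-HY5 and 0.838 to 0.887 in WT.

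Part of that overlap came from 1 element. AT2TE18115 (chromosome 2) held more counts than any other of the 19087 in WT, and it was singled out for this after its values were seen. Its level was 262.5, 317.5 and 378.0 CPM in fusca, 1463.0 CPM in the GFP-HY5 library and 1397.1, 1434.0 and 1634.6 CPM in WT. It fell in fusca (log2 fold change -2.22, SE 0.20, adjusted p = 2.7e-05, edgeR quasi-likelihood test with Benjamini-Hochberg adjustment), while the GFP-HY5 library lay inside the WT range. Without it, the remaining elements summed to 6406.5, 7577.6 and 6713.2 CPM in fusca, 6306.2 CPM in the GFP-HY5 library and 6028.2, 5819.6 and 6046.0 CPM in WT. On this sum the groups no longer overlapped, and the highest was fusca replicate 2, the library that stands apart.

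The chromosomes differed in the direction of their sums. Elements of chromosome 2 summed to 2134.8, 2841.8 and 2328.6 CPM in fusca, 3499.9 CPM in the GFP-HY5 library and 3294.2, 3291.3 and 3560.1 CPM in WT, AT2TE18115 included. On chromosome 3 the sums were 2407.3, 2849.7 and 2639.0 CPM in fusca, 2116.2 CPM in GFP-HY5 and 2016.5, 1924.2 and 1959.1 CPM in WT. On chromosome 5 they were 2126.8, 2203.6 and 2123.6 CPM in fusca, 2153.2 CPM in GFP-HY5 and 2114.6, 2038.1 and 2161.4 CPM in WT. On this scale every fusca library lay below WT on chromosome 2 and above it on chromosome 3, and the groups overlapped on chromosome 5. As a share of counts, chromosome 2 took 0.255%, 0.314% and 0.292% in fusca, 0.318% in GFP-HY5 and 0.292%, 0.291% and 0.298% in WT, so fusca and WT overlapped there. By that measure chromosome 3 stayed higher in fusca (0.287%, 0.315% and 0.331%, against 0.179%, 0.17% and 0.164% in WT). Chromosome 5 was higher in fusca too (0.254%, 0.244% and 0.267%, against 0.188%, 0.18% and 0.181% in WT). Without AT2TE18115, the other elements of chromosome 2 summed to 1872.4, 2524.2 and 1950.6 CPM in fusca, 2036.8 CPM in GFP-HY5 and 1897.1, 1857.3 and 1925.5 CPM in WT, and overlapped on the TMM scale as well. The direction held on both scales for chromosome 3 alone.

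**Figure D1:**
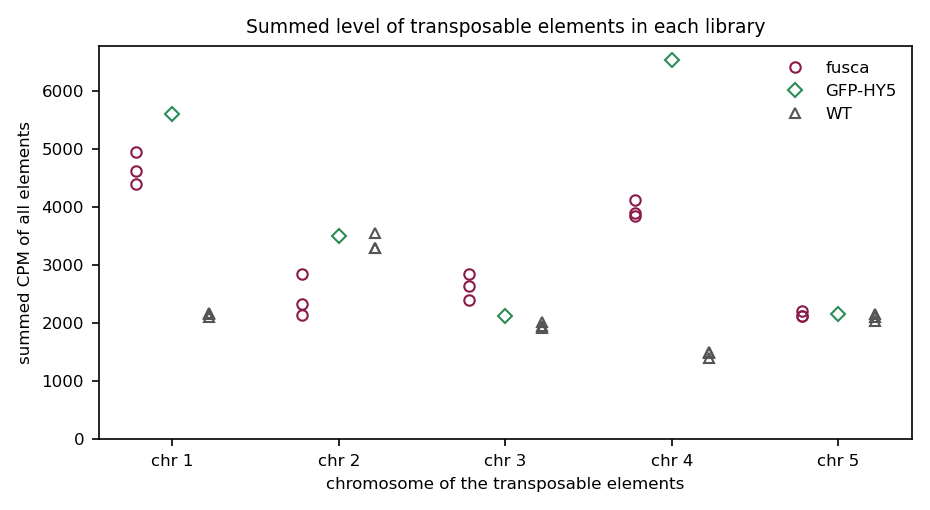
Summed level of all transposable elements of each chromosome (vertical axis, CPM), with 1 point per library for fusca, GFP-HY5 and WT from left to right. On chromosomes 1 and 4 every fusca and GFP-HY5 point lies above WT, on chromosome 2 fusca lies below WT, on chromosome 3 above it, and on chromosome 5 the groups lie close together.

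In fusca against WT, 688 of the 19087 elements had enough counts in those libraries to be tested (171 on chromosome 2, 232 on chromosome 3 and 285 on chromosome 5). Of these, 121 were higher in fusca (17.6%, against 16.7% of all 21820 loci tested) and 79 were lower (11.5%, against 18.4% of all loci tested), at an adjusted p under 0.05 in the edgeR quasi-likelihood test with Benjamini-Hochberg adjustment over all loci tested. The other 488 did not pass in either direction. The share that was higher was thus near the background of all loci, and the share that was lower was below it. The median log2 fold change of the 688 was 0.14, beside 0.05 for all loci tested.

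The balance of these calls moved with the scaling, and the number of calls moved with 1 library. Of the 200 elements called with TMM scaling, 60.5% were higher, against 47.6% of the calls over all loci (3639 higher, 4012 lower). Upper-quartile scaling gave 165 higher and 67 lower elements (71.1% higher, against 61.1% over all loci). Library size alone gave 285 higher and 55 lower (83.8% higher, against 79.8% over all loci). These scalings moved the median of all loci to 0.20 and 0.50 on the log2 scale, so all loci shifted with the elements. Without fusca replicate 2, 179 elements were higher and 123 lower (59.3% higher), beside 5368 and 5527 of all loci (49.3% higher). That library lay at least 2-fold from both other fusca replicates at 22.1% of the 688 elements (above both at 44, below both at 108), which is more than its 6.1% of all loci tested. The part of its seed storage RNA in this was not tested.

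Large changes made up only part of the calls. Of the 121 higher elements, 26 differed by less than 2-fold, 62 by 2-fold to 8-fold and 33 by at least 8-fold. Those 33 are 4.8% of the 688, against 2.16% of all loci tested. An element with at most 3 counts in each WT library entered the test only through fusca reads. That share therefore partly follows from which elements could be tested. Of all rows, tested or not, such increases were 0.173% of the elements and 0.785% of all loci. Of the 79 lower elements, 15 differed by less than 2-fold, 55 by 2-fold to 8-fold and 9 by at least 8-fold (1.31%, against 2.1% of all loci tested). The fusca and WT libraries did not overlap at 291 of the 688 elements (42.3%, against 49.8% of all loci tested), among them 118 of the 121 higher and 79 of the 79 lower.

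The chromosomes differed in how often their elements were called. Chromosome 2 had 22 of 171 higher (12.9%) and 21 lower (12.3%). Chromosome 3 had 44 of 232 higher (19.0%) and 21 lower (9.05%), and chromosome 5 had 55 of 285 higher (19.3%) and 37 lower (13%). On chromosome 1, 115 of 364 elements were higher (31.6%) and 46 lower (12.6%), and on chromosome 4, 136 of 284 were higher (47.9%) and 38 lower (13.4%). For increases of at least 8-fold the shares were 3.51% on chromosome 2, 7.33% on chromosome 3 and 3.51% on chromosome 5, beside 23.4% on chromosome 1 and 40.1% on chromosome 4. These shares are descriptions, and their differences were not tested.

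**Figure D2:**
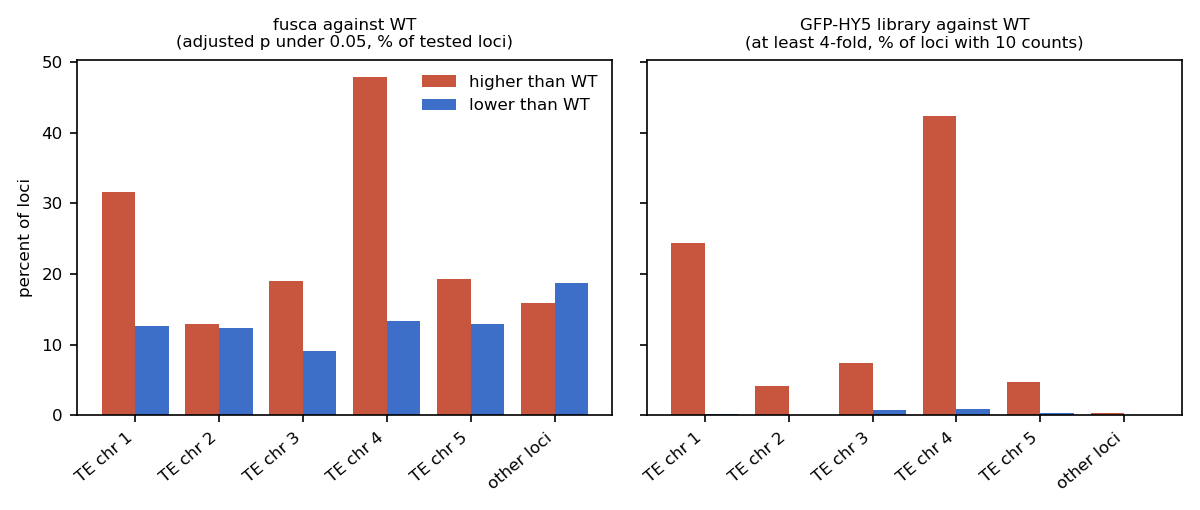
Share of loci (vertical axis, percent) higher and lower than WT, by chromosome of the transposable elements and for the loci that are no transposable element (other loci), in fusca (left, share of loci tested, adjusted p under 0.05) and in the GFP-HY5 library (right, share of loci with enough counts, at least 4-fold). In fusca the elements of chromosomes 2, 3 and 5 lie at 12.9%, 19.0% and 19.3% higher, near the 16.7% of all loci, below chromosome 1 (31.6%) and chromosome 4 (47.9%).

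Elements already expressed in WT held all 79 of the decreases and fewer of the increases. Of the 688, 527 had at least 10 counts in every WT library, and 55 of these were higher in fusca (10.4%) and 79 lower (15%). Among all loci expressed that well in WT, 14% were higher and 19.8% lower. The other higher elements had low counts in WT: 28 of the 121 had at most 3 counts in each WT library, and 13 of them had none. Over all 3639 loci higher in fusca, these counts were 349 and 139. An element that low in WT could enter the test only through high counts in fusca, so the number of such elements says nothing on its own. In the same way, a decrease can be called only where WT has reads. Over all loci, 4011 of the 4012 decreases had at least 10 counts in every WT library.

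Elements at or near 0 in WT gave the largest increases. AT5TE65540 (chromosome 5) had 617, 748 and 631 counts in fusca, 465 in the GFP-HY5 library and 0 in each WT library. AT5TE39830 (chromosome 5) had 434, 490 and 478 counts in fusca, 367 in the GFP-HY5 library and 0 in each WT library. For both, every transgenic library was high and every WT library empty. With WT set at the floor of 3 counts per library, the excess of AT5TE65540 was at least 163.7-fold in fusca, and in GFP-HY5 at least 145.8-fold. For AT5TE39830 these bounds were 114.8-fold in fusca, and in GFP-HY5 115.1-fold. The adjusted p in fusca was 1.4e-06 for each (edgeR quasi-likelihood test, Benjamini-Hochberg).

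On chromosome 3, AT3TE50650 had 1033, 1459 and 1077 counts in fusca, 782 in the GFP-HY5 library and 1, 0 and 0 in WT. Its ratio to WT was 2629.5 in fusca (95% counting interval 471.6 to 103888.6) and 2213.0 in GFP-HY5 (396.0 to 87519.0), and its adjusted p in fusca was 5.1e-07 in the edgeR quasi-likelihood test. The intervals are wide because WT held a single count. Nearby in the numbering, AT3TE50675 had 265, 73 and 263 counts in fusca, 186 in the GFP-HY5 library and none in WT. The excess was at least 48.3-fold higher in fusca (edgeR adjusted p = 0.00033), and in GFP-HY5 at least 58.3-fold, with fusca replicate 2 well under the other fusca replicates. AT3TE62215 had 93, 107 and 87 counts in fusca, 83 in GFP-HY5 and none in WT, which is at least 23.5-fold higher in fusca (edgeR adjusted p = 2.1e-05), and in GFP-HY5 at least 26.0-fold.

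AT2TE42810 was the strongest of chromosome 2. It had 945, 1162 and 1193 counts in fusca, 1610 in the GFP-HY5 library and 0, 0 and 6 in WT, or 76.0 ± 10.9 CPM in fusca (SD, n = 3), 142.1 CPM in GFP-HY5 and 0.201 ± 0.349 CPM in WT (SD, n = 3). The GFP-HY5 library was the highest, and no library of either transgenic group came near WT. The log2 fold change in fusca was 8.58 (SE 0.51, edgeR adjusted p = 2.5e-06), and the log2 CPM difference of the GFP-HY5 library from WT was 8.62. AT2TE43165, which lies close to it in the numbering, had 83, 71 and 72 counts in fusca, 55 in GFP-HY5 and 0, 2 and 0 in WT. Its ratio to WT was 83.3 in fusca (95% counting interval 22.8 to 691.6, edgeR adjusted p = 2.4e-05) and 77.8 in GFP-HY5 (20.5 to 658.7).

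Other increases were much larger in fusca than in the GFP-HY5 library. AT3TE60310 had 381, 616 and 294 counts in fusca, 15 in the GFP-HY5 library and 2, 1 and 2 in WT. Its log2 fold change in fusca was 7.50 (SE 0.50, edgeR adjusted p = 4.6e-06), while the GFP-HY5 library lay 2.22 above WT in log2 CPM, which is past 4-fold but far below fusca. AT5TE26690 had 91, 118 and 76 counts in fusca, 8 in GFP-HY5 and 14, 7 and 12 in WT, so GFP-HY5 lay inside the WT range. It rose in fusca by a log2 fold change of 2.66 (SE 0.34, edgeR adjusted p = 0.00022).

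Several elements had reads in every library and rose in fusca, with different levels in GFP-HY5. AT2TE09245 had 154, 262 and 87 counts in fusca, 27 in the GFP-HY5 library and 20, 28 and 8 in WT (log2 fold change 2.75, SE 0.49, edgeR adjusted p = 0.00202). AT5TE69965 had 115, 143 and 89 counts in fusca, 45 in GFP-HY5 and 12, 11 and 15 in WT (log2 fold change 2.74, SE 0.30, edgeR adjusted p = 9.7e-05). For AT2TE09245 the GFP-HY5 library fell inside the WT range, and for AT5TE69965 it lay between both groups. AT2TE06955 had 140, 129 and 159 counts in fusca, 182 in GFP-HY5 and 11, 13 and 10 in WT, with GFP-HY5 the highest library (log2 fold change in fusca 3.20, SE 0.21, edgeR adjusted p = 4.8e-06).

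Among the elements higher in fusca, 6 had no count at all in the GFP-HY5 library. They were AT3TE32740, AT3TE32745, AT3TE45310, AT3TE83365, AT5TE11320 and AT5TE76170, named after their values were seen. AT3TE32745 had 109, 94 and 85 counts in fusca, 0 in GFP-HY5 and 2, 1 and 2 in WT (log2 fold change in fusca 5.32, SE 0.36, edgeR adjusted p = 5.2e-06). AT3TE32740, the element before it, had 67, 58 and 44 counts in fusca and none in any other library. Both follow AT3TE32730, which held the most counts of all the elements in fusca and was singled out for that: 498.1, 804.1 and 745.2 CPM in fusca, 282.1 CPM in GFP-HY5 and 405.8, 343.7 and 359.8 CPM in WT. It rose by a log2 fold change of 0.88 (SE 0.21, edgeR adjusted p = 0.00853), and the GFP-HY5 library lay below every WT library.

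**Figure D3:**
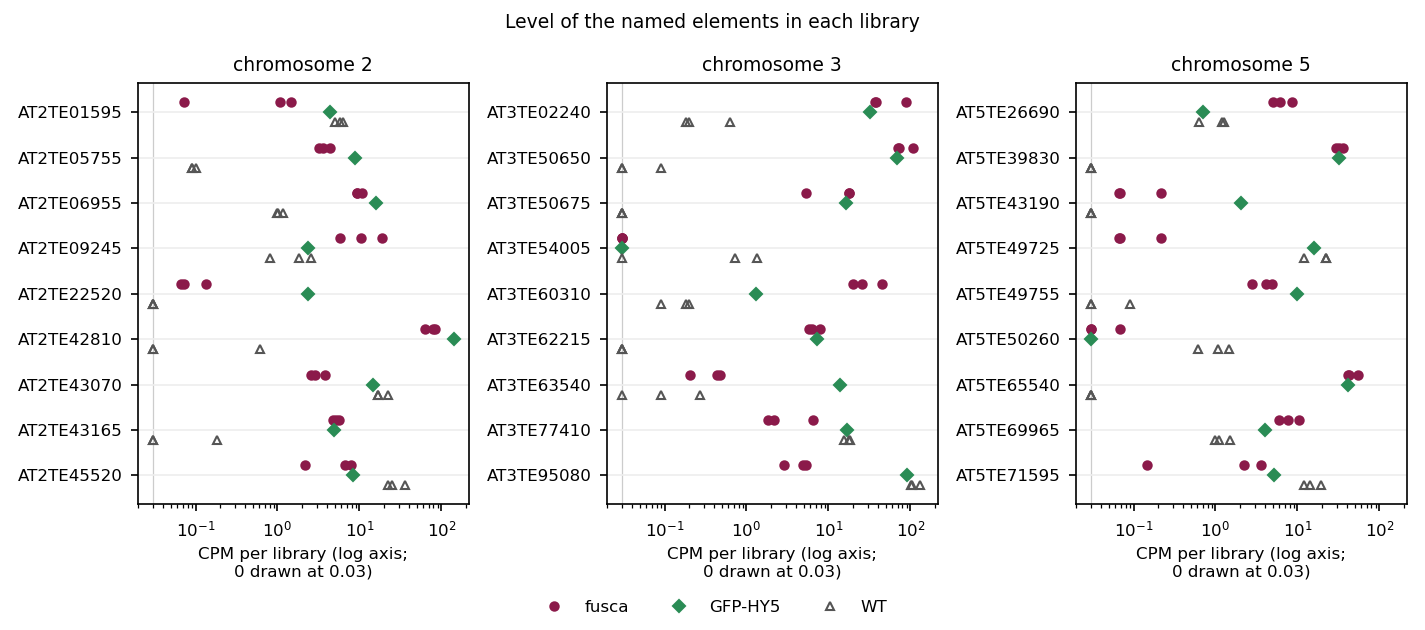
Level of the 27 named elements in each library (horizontal axis, CPM on a log scale, with 0 drawn at 0.03), grouped by chromosome, with fusca, GFP-HY5 and WT drawn from top to bottom within each element. AT5TE65540, AT5TE39830, AT3TE50650 and AT2TE42810 are high in every transgenic library and at or near 0 in WT, and AT5TE49725 and AT3TE95080 are far below WT in fusca and much nearer to it in GFP-HY5.

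For the decreases in fusca, the GFP-HY5 library lay inside the WT range at 36 of the 79, below it at 30 and above it at 13. Over all 4012 loci lower in fusca, these counts were 1441, 1953 and 618. AT5TE49725 had 1, 3 and 1 counts in fusca, 180 in the GFP-HY5 library and 250, 133 and 225 in WT. It was nearly silent in all fusca libraries, and GFP-HY5 lay inside the WT range. Its log2 fold change in fusca was -7.25 (SE 0.45, edgeR adjusted p = 3.3e-06), the largest decrease among the named elements. AT3TE95080, near the end of the numbering on chromosome 3, had 42, 73 and 73 counts in fusca, 1025 in GFP-HY5 and 1158, 1117 and 1304 in WT (log2 fold change in fusca -4.69, SE 0.25, edgeR adjusted p = 1.3e-06).

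On chromosome 2, AT2TE43070 had 43, 53 and 38 counts in fusca, 168 in the GFP-HY5 library and 184, 187 and 223 in WT (log2 fold change in fusca -2.59, SE 0.22, edgeR adjusted p = 1.8e-05). Its number lies between those of AT2TE42810 and AT2TE43165, which moved the other way. AT2TE01595 had 16, 1 and 22 counts in fusca, 49 in GFP-HY5 and 70, 65 and 50 in WT (log2 fold change in fusca -2.68, SE 0.53, edgeR adjusted p = 0.0034). AT3TE77410 had 27, 88 and 32 counts in fusca, 192 in GFP-HY5 and 194, 171 and 181 in WT (log2 fold change in fusca -2.31, SE 0.40, edgeR adjusted p = 0.00157). In both, fusca replicate 2 lay apart from the other fusca replicates, below them at AT2TE01595 and above them at AT3TE77410, and no fusca library reached WT.

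In 2 further named decreases the GFP-HY5 library lay well below WT, by more than 2-fold. AT5TE71595 had 53, 2 and 33 counts in fusca, 58 in the GFP-HY5 library and 133, 156 and 192 in WT (log2 fold change in fusca -2.91, SE 0.58, edgeR adjusted p = 0.00369, log2 CPM difference in GFP-HY5 -1.54). AT2TE45520 had 116, 30 and 99 counts in fusca, 95 in GFP-HY5 and 243, 279 and 357 in WT (log2 fold change in fusca -2.31, SE 0.39, edgeR adjusted p = 0.00129, log2 CPM difference in GFP-HY5 -1.71). Each was low in all transgenic libraries, by less than 4-fold in GFP-HY5.

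In the GFP-HY5 library, 744 elements had at least 10 counts there or in a WT library. Of these, 41 lay at least 4-fold above the WT mean (5.51%, against 1.52% of all 21980 loci with such counts) and 3 lay at least 4-fold below it (0.403%, against 0.105%). Elements past the upper limit are called raised in GFP-HY5 in what follows, as a description. Each difference is on the log2 CPM scale after a prior count of 2 was added, and with 1 library there is no test. Chromosome 2 held 8 of the higher elements (4.19% of those with such counts), chromosome 3 held 19 (7.48%) and chromosome 5 held 14 (4.68%). Chromosome 1 held 95 (24.4%) and chromosome 4 held 137 (42.4%), and among loci that are no transposable element 61 were higher (0.297%). An element silent in WT could enter this count only with reads in GFP-HY5. These calls rest on the prior count: with empty libraries set at the floor of 3 counts, 6 of the 41 have bounds of 3.14-fold to 3.76-fold, under 4-fold, and the 3 lower elements have bounds of 2.53-fold to 3.95-fold.

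By the way they were chosen, the 41 elements were low in WT and high in GFP-HY5, and their sums only describe that choice: 342.3, 481.0 and 362.5 CPM in fusca, 462.0 CPM in the GFP-HY5 library and 2.62, 3.52 and 3.22 CPM in WT. Only 1 of them, AT2TE06955, had at least 10 counts in every WT library. Over all 334 loci raised in GFP-HY5 by the same rule, 8 did. In the other direction, AT5TE50260 had 1, 0 and 0 counts in fusca, 0 in GFP-HY5 and 16, 12 and 6 in WT, and was at least 3.95-fold lower in GFP-HY5. AT3TE54005 had 0 counts in every fusca library and in GFP-HY5, and 8, 15 and 0 in WT. AT3TE41805 was the third, with 9, 13 and 17 counts in fusca, 0 in GFP-HY5 and 5, 5 and 11 in WT. All 3 rest on few reads.

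The elements raised in the GFP-HY5 library ranged in fusca from many reads to few or none. Some also had many reads in fusca, with AT2TE42810, AT3TE50650, AT5TE39830 and AT5TE65540 above as examples. AT3TE02240 is another, with 542, 1198 and 570 counts in fusca, 359 in GFP-HY5 and 7, 2 and 2 in WT (log2 fold change in fusca 7.26, SE 0.55, edgeR adjusted p = 9.1e-06, log2 CPM difference in GFP-HY5 5.99). Among these elements GFP-HY5 could be the higher or the lower of the transgenic groups. AT5TE49755 had 62, 38 and 74 counts in fusca, 112 in GFP-HY5 and 0, 1 and 0 in WT, a ratio to WT of 128.2 in fusca (95% counting interval 22.7 to 5092.2, edgeR adjusted p = 3.9e-05) and 317.0 in GFP-HY5 (55.7 to 12629.2). AT2TE05755 had 54, 61 and 48 counts in fusca, 100 in GFP-HY5 and 1 in each WT library, a ratio to WT of 40 in fusca (13.5 to 196.1, edgeR adjusted p = 1.1e-05) and 94.3 in GFP-HY5 (31.4 to 465.1).

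Other elements raised in GFP-HY5 had reads mainly in that library. Of the 41, 17 lay less than 2-fold above WT in fusca with the same prior count of 2, which shrinks differences at low counts, and 20 were too low in fusca and WT to be tested there. Over all 334 loci raised in GFP-HY5 by the same rule, these counts were 33 and 83. Not being tested did not mean absence in fusca: AT5TE42330, among the 20, had 14, 8 and 12 counts in fusca, 10 in GFP-HY5 and none in WT. AT3TE63540 had 3, 6 and 7 counts in fusca, 156 in GFP-HY5 and 1, 3 and 0 in WT, so its fusca and WT counts overlapped. AT2TE22520 had 2, 1 and 1 counts in fusca, 27 in GFP-HY5 and none in WT, and was at least 8.47-fold higher in GFP-HY5. AT5TE43190 had 1, 3 and 1 counts in fusca, 23 in GFP-HY5 and none in WT, and was at least 7.21-fold higher in GFP-HY5. These values come from 1 library and have no replicate check.

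**Figure D4:**
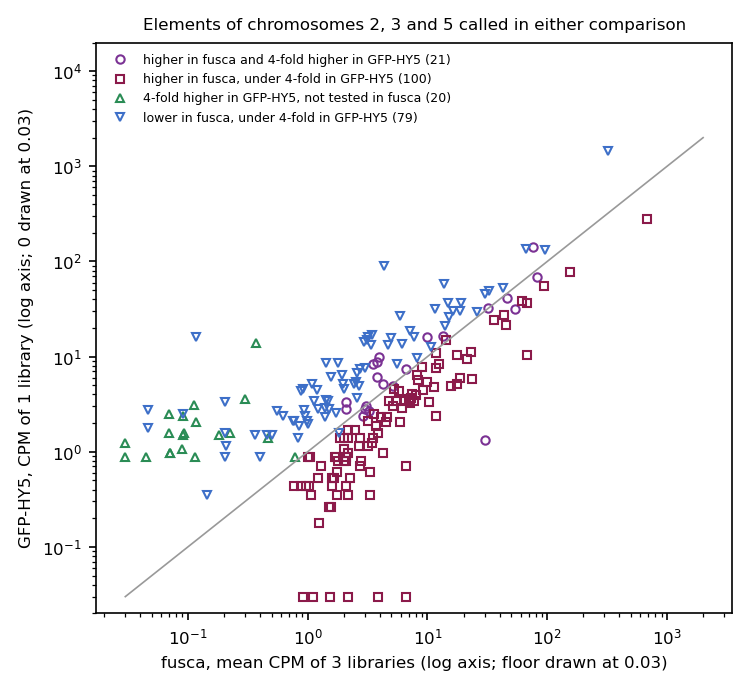
Level in the GFP-HY5 library (vertical axis, CPM of 1 library) against the mean level in fusca (horizontal axis, CPM of 3 libraries), both on log scales with 0 drawn at 0.03, for elements of chromosomes 2, 3 and 5 called in either comparison, coloured by call. The 3 elements at least 4-fold lower in GFP-HY5 are not drawn. Elements lower in fusca lie mostly above the line of equal levels, most elements higher in fusca lie below it, and the 20 elements raised in GFP-HY5 and not tested in fusca stand at low fusca levels.

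The GFP-HY5 level can also be set directly beside the 3 fusca libraries. Of the 121 elements higher in fusca, the GFP-HY5 level lay below the fusca range at 97 (80.2%, against 91.1% of all loci higher in fusca), inside it at 16 and above it at 8. Of the 79 lower in fusca, the GFP-HY5 level lay above the fusca range at 74 (93.7%, against 97.1% of all loci lower in fusca), inside it at 4 and below it at 1. Of the 41 raised in GFP-HY5, its level was above the fusca range at 27, inside it at 9 and below it at 5. Over all 334 loci raised in GFP-HY5 by the same rule, these counts were 147, 89 and 98. All these counts describe 1 library and partly follow from how each list was chosen, since a list of elements high in fusca favours fusca and a list of elements high in GFP-HY5 favours GFP-HY5.

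Along the identifier numbering, the elements raised in GFP-HY5 lay mostly where elements are densest. Each chromosome was divided into windows of 5000 identifier numbers, and the 4 windows with the most elements were pooled (windows 2 to 5 on chromosome 2, 10 to 13 on chromosome 3 and 8 to 11 on chromosome 5). They hold 50.4% of the 19087 elements. They held 32 of the 41 elements raised in GFP-HY5 (23.2% of those with enough counts there), against 9 in all other windows (1.49%). In fusca they held 36 of the 121 higher elements (31.9% of those tested there, against 14.8% elsewhere) and 10 of the 79 lower ones (8.85%, against 12%). Few elements in the dense windows had enough counts to be tested, 113 against 575 elsewhere, and the shares were not tested. An element silent in WT entered these shares only through reads in a transgenic library. The shares therefore partly follow from how elements were counted. Of all elements, with or without reads, 0.333% were raised in GFP-HY5 in the dense windows and 0.095% elsewhere. For fusca the direction turned on that count. Of all 9613 elements in the dense windows 36 were higher in fusca, against 85 of the 9474 elsewhere.

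Counts differed between windows within each chromosome. Window 9 of chromosome 5 (numbers 40000 to 44999) held 8 of that chromosome's 14 elements raised in GFP-HY5, among 9 with enough counts. In fusca 1 element there could be tested and none was higher. The window before it held 11 of the elements higher in fusca, among 20 tested, and 1 raised in GFP-HY5, among 18 with enough counts. On chromosome 3, windows 11 to 13 held 5, 5 and 4 of the 19 elements raised in GFP-HY5, among 9, 11 and 14 with enough counts. They also held 4, 0 and 3 of the 44 higher in fusca, among 6, 5 and 13 tested. Over all loci, 1.52% of those with enough counts were raised in GFP-HY5 and 16.7% of those tested were higher in fusca. On chromosome 2, windows 13 to 18 held no higher element in either comparison, and 6 that were lower in fusca. Only 508 elements lie there, with 38 tested in fusca and 40 with enough counts for GFP-HY5. The 6 are 15.8% of those tested, near the 18.4% of all loci tested. These windows were picked out after their counts were seen.

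**Figure D5:**
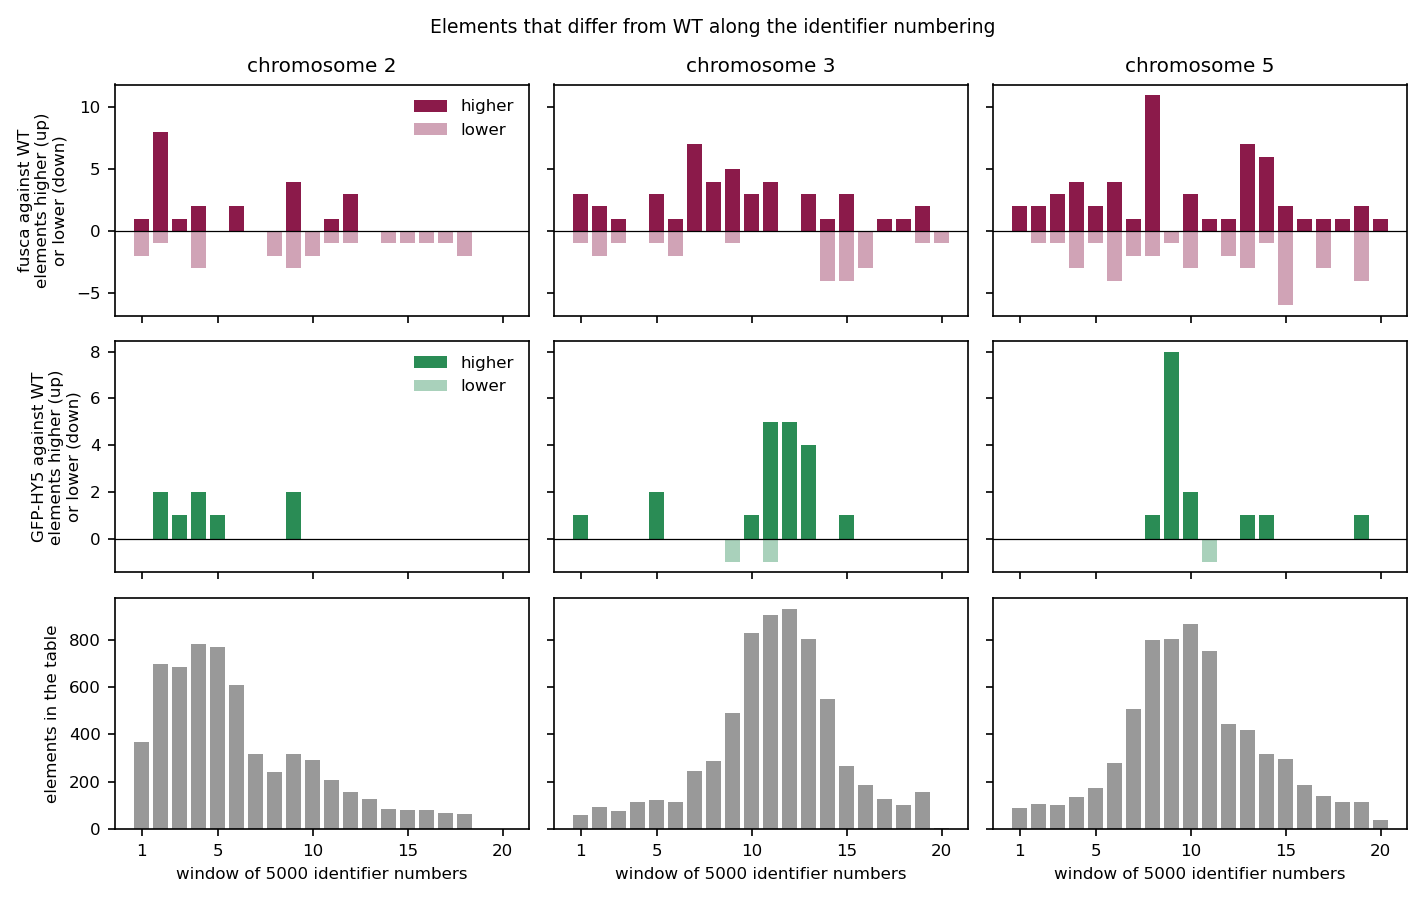
Number of elements higher (bars up) and lower (bars down) than WT in each window of 5000 identifier numbers, in fusca (top row) and in the GFP-HY5 library (middle row), with the number of elements per window (bottom row), for chromosomes 2, 3 and 5. The GFP-HY5 bars stand mostly in the windows with the most elements, 32 of 41 in the 4 densest windows of each chromosome, while the fusca bars run along the whole numbering.

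A minority of the changed elements were neighbours. Of the 121 higher in fusca, 22 (18.2%) stood in 10 runs of adjacent rows of the table, and of the 79 lower, 12 (15.2%) stood in 6 runs. Of the 41 raised in GFP-HY5, 6 (14.6%) stood in 3 runs. Among all 19087 elements, 0.634% were called higher in fusca, 0.414% lower in fusca and 0.215% raised in GFP-HY5. How often scattered calls that rare would be adjacent was not tested. On chromosomes 1 and 4 the corresponding shares were 40.6%, 35.7% and 51.7%, where more of the elements were called. The longest runs held 3 elements, AT2TE09335 to AT2TE09345 and AT3TE32730 to AT3TE32745, both higher in fusca. AT3TE20775 and AT3TE20780 formed a run in both comparisons, with 21, 42 and 26 counts in fusca and 38 in GFP-HY5 for the first, 61, 46 and 47 counts in fusca and 95 in GFP-HY5 for the second, and none in WT for either. AT2TE18110 and AT2TE18115 formed a run of decreases, with AT2TE18110 at 0.907 ± 0.421 CPM in fusca (SD, n = 3), 4.59 CPM in GFP-HY5 and 3.5 ± 0.647 CPM in WT (SD, n = 3; log2 fold change -1.94, SE 0.36, edgeR adjusted p = 0.00246). How far neighbouring elements share reads with each other or with an overlapping gene was not tested.

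Of 34 genes of DNA methylation, histone modification and small-RNA silencing, all tested, 2 were higher in fusca and 2 were lower, where 16.7% of all loci tested were higher and 18.4% lower. Their median log2 fold change was 0.11, beside 0.05 for all loci tested. CMT3, which methylates DNA at CHG sites, fell to 21.3 ± 4.19 CPM in fusca, against 38.1 ± 4.58 CPM in WT (SD, n = 3 each), and stood at 45.3 CPM in the GFP-HY5 library (log2 fold change in fusca -0.84, SE 0.18, edgeR adjusted p = 0.00506). The gene listed as DML1, also known as ROS1, a demethylase that removes DNA methylation, fell to 9.96 ± 4.04 CPM in fusca, against 22.7 ± 3.87 CPM in WT (SD, n = 3 each), with 15.1 CPM in GFP-HY5 (log2 fold change in fusca -1.19, SE 0.27, edgeR adjusted p = 0.00739). One of these takes part in adding DNA methylation and the other in removing it.

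Both increases were small. HDA6, a histone deacetylase that helps to silence repeats, stood at 43.1 ± 10.2 CPM in fusca, 29.6 CPM in the GFP-HY5 library and 28.0 ± 0.831 CPM in WT (log2 fold change in fusca 0.62, SE 0.18, edgeR adjusted p = 0.0216). RDR2, the RNA polymerase that makes the double-stranded precursors of silencing small RNAs, stood at 11.4 ± 1.35 CPM in fusca, 7.94 CPM in GFP-HY5 and 7.52 ± 1.12 CPM in WT (log2 fold change in fusca 0.60, SE 0.18, edgeR adjusted p = 0.03). MET1, which maintains methylation at CG sites, stood at 61.7 ± 11.5 CPM in fusca, 87.7 CPM in GFP-HY5 and 85.5 ± 8.65 CPM in WT and did not pass (edgeR adjusted p = 0.0573). DDM1, a chromatin remodeller needed for silencing and listed as CHR1, did not pass either (log2 fold change in fusca 0.16, edgeR adjusted p = 0.598). In the GFP-HY5 library no gene of the list differed from WT by 2-fold, with log2 CPM differences between -0.67 and 0.53.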

How the data were processed

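RNA-seq of 9 seedling samples was used, and 20 ChIP-seq samples were not analysed here. The authors deposited raw sense-strand read counts per locus. The submitters' processing notes name Trim Galore, STAR, HTSeq, deepTools and TAIR10; how reads that match several elements were counted is not given in the sources used here. The row for reads on no feature (48.4% to 48.9% of each column) and the row for ambiguous reads (0.572% to 0.798%) were left out. The row for reads aligned to several places held 0 in every column. Pairs of WT columns differed at 26704 to 26784 loci, and the GFP-HY5 columns at 0.

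All 7 distinct libraries entered 1 edgeR 4.0.16 fit (R 4.3.3; TMM, glmQLFit, glmQLFTest). filterByExpr on the WT and fusca libraries kept 21820 loci, over which p-values were adjusted by Benjamini-Hochberg at a threshold of 0.05. The fit was also run on simulated counts with 200 changed loci. That run says nothing on the choice of scaling. Folds against WT libraries all at 0 used a floor of 3 counts per library, and ratios to 1 to 3 WT counts have exact Poisson intervals at 95%.

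The elements, the lists and the tests were chosen with earlier results of these data known. Named elements are, per chromosome, the 4 largest increases and 2 largest decreases in fusca with a mean of at least 5 CPM in the higher group and no overlap of groups, the 3 largest increases and the largest decrease in GFP-HY5, and the element at least 4-fold higher in GFP-HY5 and under 2-fold higher in fusca with the highest CPM. Alternatives were other scalings, DESeq2 1.42.0, other count minimums and folds, a replicate block and leaving out each library.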

Additional observations from a re-analysis of the deposited data

How the results depend on the processing

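With library size alone as the scaling, 285 elements were higher in fusca in place of 121 (57 on chromosome 2, 101 on chromosome 3 and 127 on chromosome 5), and 12 on chromosome 3 were lower in place of 21. Over all loci, 10189 were then higher in place of 3639. Upper-quartile scaling gave 37 higher on chromosome 2 in place of 22. With no filter on low counts, 119 were lower in place of 79 (33 on chromosome 2 and 34 on chromosome 3), and 41 were higher on chromosome 2. Leaving out 1 library gave 90 to 179 higher and 59 to 123 lower. By chromosome the ranges were 15 to 35 higher and 16 to 34 lower on chromosome 2, 33 to 66 and 11 to 38 on chromosome 3, and 40 to 78 and 29 to 51 on chromosome 5. The lower end for decreases on chromosome 3, 11, came without WT replicate 2, and the upper ends came without fusca replicate 2. The cause was not tested. In GFP-HY5, 26 elements in place of 41 were higher with a minimum of 20 counts. The 3 decreases became 6 with a prior count of 0.5, 0 with a prior count of 5, 24 at 2-fold, 0 at 8-fold, 0 with a minimum of 20 counts and 5 with no filter. Leaving out 1 WT library gave 40 to 42 higher and 2 to 3 lower. Same-numbered fusca and WT samples did not deviate together (correlations -0.0537, -0.133 and -0.226), and a fit with the replicate block gave 118 higher and 70 lower. DESeq2 gave 111 higher and 78 lower. The 22 named elements that were tested kept their direction and their side of the threshold in fusca under all 308 recomputed values. In GFP-HY5, 25 of 120 recomputed values moved beyond the WT spread and counting error, mostly with another prior count, and none changed sign. Depth limits what can be said of the elements with under 10 counts in every library, and of decreases of elements with few reads in WT.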

Other observations

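Some elements had reads in 1 group and none in another. Of the 19087 elements, 13 had at least 10 counts in every fusca library and none in WT (146 of all 59999 loci), and 25 had at least 10 counts in the GFP-HY5 library and none in WT (159 of all loci). With at least 10 counts in every fusca library and 0 in GFP-HY5 there were 7 (42 of all loci), and with at least 10 counts in GFP-HY5 and 0 in every fusca library there were 3 (19 of all loci). None of the 529 elements with at least 10 counts in every WT library was empty in all fusca libraries or in GFP-HY5. Of all 20244 such loci, 12 were empty in all fusca libraries and 0 in GFP-HY5.

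AT3TE29990 on chromosome 3, picked out after its values were seen, stood at 51.5, 105.1 and 47.3 CPM in fusca, 10.5 CPM in the GFP-HY5 library and 5.88, 3.16 and 4.73 CPM in WT. It rose in fusca by a log2 fold change of 3.88 (SE 0.37, edgeR adjusted p = 3.5e-05), with no overlap between fusca and WT.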
